A study of Homo sapiens with 54 samples.

Results

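Interferon-stimulated antiviral effector genes were examined in OCI-Ly1 lymphoma cells that express wild-type or mutant STAT6. The set holds 45 genes, each found as 1 line of a UMI count table of 31835 genes by matching its Ensembl identifier to the gene symbol, and none of the 45 was without a UMI. The established line OCI-Ly1 came from a human B cell lymphoma and has a STAT6 DNA-binding domain variant of its own, which all groups share. Cells stably expressed Flag-tagged STAT6 from a CMV promoter. They received a pulse of IL-4 (10 ng/ml, 20 min), and RNA was taken 2, 4, or 8 h after its removal. At each time point there were 9 libraries of STAT6WT cells and 9 of STAT6MUT cells, 3 per mutant (D419G, D419N, N421K), for 54 libraries in all. No unstimulated cells were part of the series, so that the level in STAT6WT cells after the pulse served as the baseline. The number of independent transductions behind each construct is not stated in the labels or methods, so that STAT6 genotype and transduced population cannot be told apart.

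Interferons bind surface receptors whose kinases phosphorylate STAT proteins. Together with IRF9 these form a complex that binds a DNA element, the interferon-stimulated response element (ISRE), and turns on the antiviral effectors studied here. The effectors act at many steps of a viral life cycle, from membrane fusion through copying and translation of viral RNA to release of particles, and B cells carry a low level of many of them without infection. STAT6 is the transcription factor of the IL-4 receptor, and binds a palindrome of the same half-sites as other STATs with a spacer that is longer by a single base.

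Upstream sequences are shown because the ISRE is the element that defines this gene group. RefSeq promoter windows of GRCh38.p14, 250 bases before to 50 bases after each annotated start, were available for 37 of the 45 genes. The ISRE core was searched as GAAANNGAAA on both strands, and was found in 25 of these 37 genes (67.6%), against 4.38% of 27305 genes of the same table. The interferon gamma-activated site, searched as TTCNNNGAA, was found in 9 of the 37 (24.3%, against 9.38% of all genes), and the STAT6 spacing TTCNNNNGAA in 3 (8.11%, against 7.8%). Of the 26 genes with a window that were called higher in STAT6MUT without a count filter (see the counts of calls that follow), 19 held the ISRE letters, as did 6 of the other 11. GBP1, among these 6, was called lower in STAT6MUT in that fit. The 60-base stretches printed here all lie before the start that RefSeq gives, on the strand of the gene, with the ISRE letters, or their reverse complement, in capitals. The first 7 belong to genes that were higher in STAT6MUT, and the last 2 to genes that were not called across time points.
MX1: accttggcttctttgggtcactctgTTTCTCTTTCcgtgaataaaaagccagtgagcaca
IFI44: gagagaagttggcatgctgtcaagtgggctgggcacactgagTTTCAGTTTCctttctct
IFI27: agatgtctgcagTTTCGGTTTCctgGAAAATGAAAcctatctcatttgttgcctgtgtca
IFI6: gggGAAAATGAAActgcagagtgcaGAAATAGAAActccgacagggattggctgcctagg
EPSTI1: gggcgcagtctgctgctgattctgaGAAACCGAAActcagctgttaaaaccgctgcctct
SAMD9: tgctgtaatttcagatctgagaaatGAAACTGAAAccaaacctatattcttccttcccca
IFIT1: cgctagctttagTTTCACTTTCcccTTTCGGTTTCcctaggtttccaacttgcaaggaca
ISG20: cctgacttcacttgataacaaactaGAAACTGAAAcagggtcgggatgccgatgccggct
TRIM14: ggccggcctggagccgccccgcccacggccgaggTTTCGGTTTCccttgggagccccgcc

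These stretches lie at chr21:41431829-41431888 on the plus strand (MX1), chr1:78649729-78649788 plus (IFI44), chr14:94110616-94110675 plus (IFI27), chr1:27672251-27672310 minus (IFI6), and chr13:42992257-42992316 minus (EPSTI1). The others lie at chr7:93118081-93118140 minus (SAMD9), chr10:89392495-89392554 plus (IFIT1), chr15:88638922-88638981 plus (ISG20), and chr9:98119223-98119282 minus (TRIM14). In GENCODE 44 those of IFI44, IFI6, SAMD9, and TRIM14 lie outside the span of the gene and hold no base of the gene's exons, although a noncoding gene, ENSG00000225886, covers that of IFI6. Those of EPSTI1, IFIT1, and ISG20 hold 15, 9, and 29 exon bases of longer transcripts, and LIPA also covers that of IFIT1. Those of MX1 and IFI27 are intronic for longer transcripts that start further upstream. MX1 has 3 RefSeq windows, and which start the cells use was not measured. In EPSTI1 the letters TTCNNNGAA begin 56 bases before the start and overlap the ISRE, which begins 50 bases before it. No ISRE letters were present in the windows of HELZ2 and SAMD9L, which were also higher in STAT6MUT, and the absence speaks only of these letters in these windows.

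**Figure D1:**
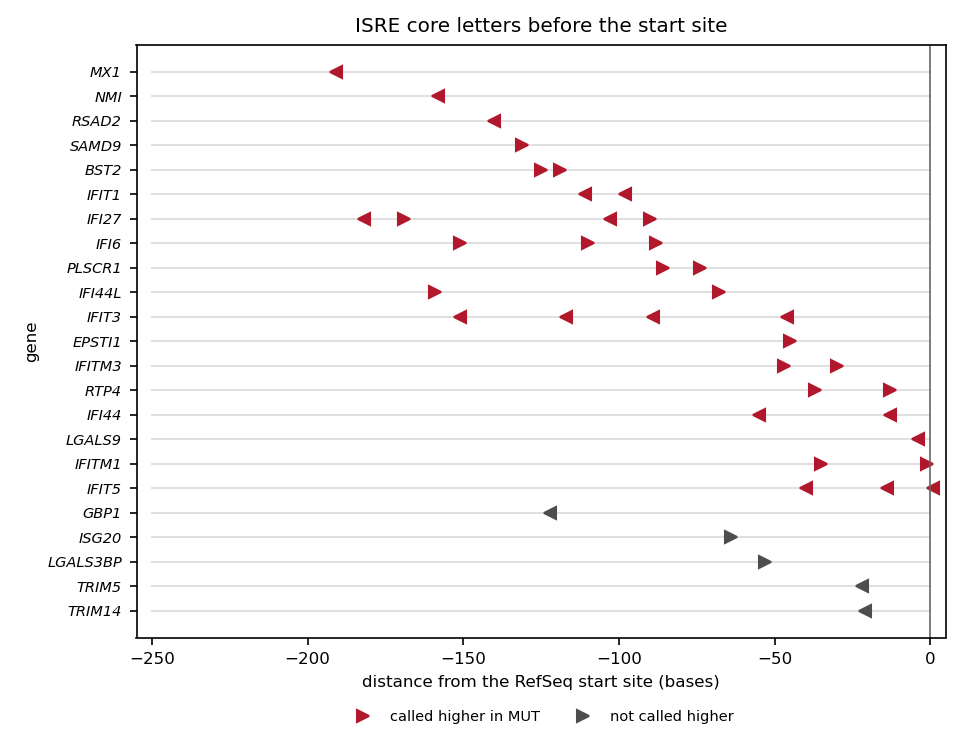
Position of the ISRE core letters relative to the RefSeq start site (x axis, bases, 0 is the start) in 23 of the 45 genes that have them before the start. Arrowheads point right for GAAANNGAAA on the strand of the gene and left for its reverse complement, red marks the 18 genes called higher in STAT6MUT, gray the others, and matches of all windows of a gene are drawn on its line. GBP1, in gray, was called lower in the fit without a filter.

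The libraries held 161518 to 2978715 UMIs (median 885258.5), and 8 of them, 6 of STAT6MUT and 2 of STAT6WT, lay under 0.5 of the median. Levels are given as CPM, the UMIs of a gene per 1000000 UMIs of its library, with the library total scaled by its TMM factor. Each UMI is 1 molecule caught near the end of its mRNA, so that no length correction applies. The N421K library of 8 h with replicate number 2 was among the shallow ones and held lower values of several members than the other N421K libraries of 8 h. Leaving it out gave 21 members called across time points in place of 20, and 15 at 8 h in place of 13. All 7 B cell markers passed the count filter, and 1 of the 4 T cell, 3 of the 4 myeloid, and none of the 3 plasmacytoid dendritic cell marker symbols had a line in the table, with 2, 17, and 0 UMIs in all libraries. The summed B cell marker level ranged from 2628 to 3491 CPM in STAT6WT and from 2117 to 3460 in STAT6MUT, with CD79A, CD79B, and CD22 called lower in STAT6MUT, and the part of this in the results was not tested. Summed germinal center markers ranged from 609.1 to 1009 CPM in STAT6WT and from 573.5 to 1259 in STAT6MUT, with BCL6 and MME called higher, S1PR2 called lower, and MEF2B at 3 UMIs in all. Plasma cell, fibroblast, erythroid, and epithelial lists reached at most 5.50 CPM in any library. STAT6 itself ranged from 132.2 to 225.6 CPM in STAT6WT and from 106.1 to 222.9 in STAT6MUT, and was lower in STAT6MUT by edgeR's quasi-likelihood test (log2 fold change -0.15, adjusted p = 0.00982). Its median was 160.7 CPM in STAT6WT, 147.4 in D419G, 141.4 in D419N, and 126.0 in N421K, and the part of this in the results was not tested. Counts per gene do not separate the endogenous transcript from the transgene, and whether transgene reads were counted as STAT6 was not tested, so these values do not check the transgene. In such bulk RNA, a change in the share of cells that express a gene cannot be told apart from a change in RNA per cell.

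Across time points, 20 of the 45 genes were higher in STAT6MUT and none was lower by edgeR's quasi-likelihood test at an adjusted p under 0.05, with 27 passing the filter on low counts. Of all 9261 genes tested, 6.74% were higher and 6.62% were lower. At an unadjusted p under 0.05 the count was also 20 higher and 0 lower, and DESeq2, which sets its own filter, called 30 higher and 0 lower. Neither of these counts has a share of all genes beside it. The median log2 fold change was 0.39 over the 27 genes and 0.00 over all genes tested. A log2 fold change of at least 1 was reached by 8 genes (MX1, IFI44, IFI27, IFITM2, HELZ2, SAMD9, SAMD9L, and EPSTI1), 3 lay between 0.5 and 1, and 9 were under 0.5. The other 18 genes had too few UMIs for the filter, and a gene that passes a filter only through its high group must differ, so that all 45 were also fitted without one. There 31 were called higher and 2 lower, GBP1 and GBP2, where 1.77% and 1.9% of all 31835 genes were called. The median log2 fold change there was 0.73 over the 45 genes and 0.01 over all genes. IFI44, IFI27, HELZ2, and SAMD9L were low in STAT6WT and may have passed the filter through STAT6MUT libraries. Their log2 fold changes without it were 3.21, 2.52, 1.90, and 1.90 (edgeR's quasi-likelihood test, adjusted p at most 3.83e-34). All replicates carry the label of a biological replicate, and p-values measure the spread between these libraries.

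**Figure D2:**
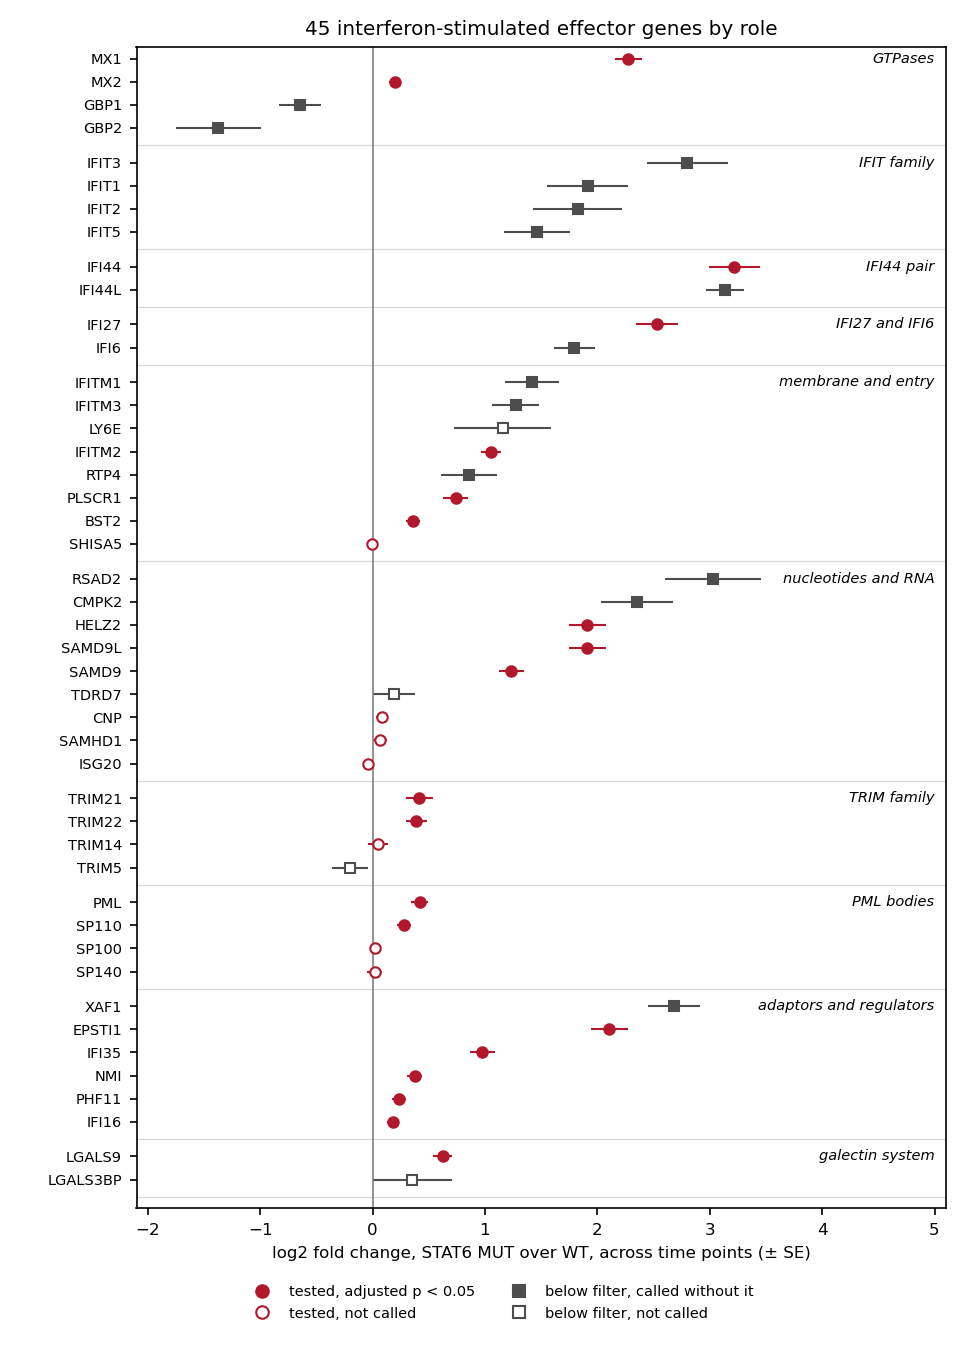
Log2 fold change of STAT6MUT over STAT6WT across time points (x axis, points, bars ± SE, 27 libraries each) for all 45 genes, grouped by role. Red circles are the 27 genes that passed the count filter (filled where called), and gray squares are 18 genes below it, taken from the fit without a filter, where GBP1 and GBP2 are the called genes to the left of 0.

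MX1 (ENSG00000157601), a dynamin-like GTPase that traps viral nucleocapsids, had the smallest p of all 9261 genes. In STAT6WT, its level was 24.1 CPM at the lowest, 28.7 at the median, and 56.1 at the highest library of 2 h, and the medians at 4 and 8 h were 31.5 and 41.0 CPM. At 2 h, D419G libraries held 104, 79.0, and 61.5 CPM, D419N 68.4, 64.6, and 46.6, and N421K 84.6, 83.9, and 72.2. One D419N library of 2 h thus lay within the STAT6WT range and the other 8 STAT6MUT libraries lay above it. At 4 h, D419G reached 183, 180.3, and 193 CPM, D419N 128, 129, and 136, and N421K 244, 306, and 297, with the highest STAT6WT library at 37.5. At 8 h, D419G stood at 269, 227, and 162 CPM, D419N at 175, 110.3, and 115, and N421K at 374, 137, and 276, the 137 CPM coming from the shallow library. The groups did not overlap at 4 and 8 h (exact permutation test, two-sided, 9 against 9 libraries, p = 4.1e-05 at either time, the smallest this design allows). The log2 fold change across time points was 2.28 ± 0.12 (SE, adjusted p = 2.36e-28). TMPRSS2 overlaps MX1 on the other strand and the use of strand is not given, so that the 2 genes may share counts. MX2, the related GTPase that acts on nuclear import of viral genomes, rose little, from 56.8 ± 12.1 CPM (SD, n = 27) in STAT6WT to 64.8 ± 14.5 in STAT6MUT (log2 fold change 0.20 ± 0.06, adjusted p = 0.00857). It was not called under 5 of 14 alternatives (adjusted p up to 0.151). Among these were the fits without the count filter (adjusted p = 0.0532), without replicate number 3 (0.0716), and without D419G (0.129).

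The guanylate-binding proteins, large GTPases that attack membranes of intracellular pathogens and respond mainly to interferon gamma, were lower in the pooled STAT6MUT libraries, at low levels. A joint test among the mutant lines without a filter called a difference for GBP1 and not for GBP2. GBP1 held 212 UMIs in all STAT6WT and 104 in all STAT6MUT libraries, and GBP2 held 48 and 13. Their unfiltered log2 fold changes were -0.65 ± 0.19 (adjusted p = 0.0214) and -1.37 ± 0.38 (adjusted p = 0.0109) by edgeR, whereas DESeq2 did not call them (adjusted p = 0.0754 and 0.0582). For GBP1, the unfiltered log2 fold change was 0.06 ± 0.25 in D419G, -0.45 ± 0.27 in D419N, and -1.76 ± 0.30 in N421K, where alone it was called (adjusted p = 6.58e-07). For GBP2, the values were -1.58 ± 0.63, -0.46 ± 0.50, and -2.43 ± 0.61, again called in N421K (adjusted p = 0.00303). Exact permutation tests at 2, 4, and 8 h gave p = 0.074, 0.53, and 0.47 for GBP1 and 0.10, 0.027, and 0.44 for GBP2.

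IFI44 (ENSG00000137965) and IFI44L, neighboring and similar genes on chromosome 1 whose products are linked to antiviral defense, both had fitted log2 fold changes above 3. IFI44 in STAT6WT lay between 0 and 7.62 CPM over all 27 libraries, with a median of 2 UMIs. At 2 h, D419G libraries held 5.98, 0, and 6.15 CPM, at 4 h 11.3, 12.5, and 22.1, and at 8 h 35.5, 28.9, and 19.5. D419N libraries held 4.31, 3.80, and 9.32 CPM, then 9.67, 10.6, and 9.68, then 28.0, 15.1, and 11.5. N421K libraries held 16.1, 10.5, and 6.74 CPM, then 30.7, 35.2, and 39.0, then 52.6, 14.7, and 48.5. All 9 STAT6MUT libraries of 4 h and of 8 h lay above every STAT6WT library of the same time, against 6 of 9 at 2 h. The log2 fold change across time points was 3.22 ± 0.23 (adjusted p = 1.65e-20). IFI44L did not pass the filter across time points, and was 2.20 ± 1.58 CPM (SD, n = 27) in STAT6WT and 17.0 ± 18.7 in STAT6MUT. Its highest values were those of N421K, with 49.7, 63.8, and 52.6 CPM at 4 h, where D419G held 6.81, 2.50, and 11.03, and D419N 7.52, 14.1, and 19.4. The unfiltered log2 fold change of IFI44L was 3.14 ± 0.17 (adjusted p = 2.86e-76). How reads shared by the related sequences of this pair were counted is not given, so each value is uncertain to that extent.

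IFI27 and IFI6, small hydrophobic proteins of mitochondria and of the endoplasmic reticulum that act on cell death and on viral replication, were both higher. For IFI27 (ENSG00000165949), STAT6WT libraries had medians of 1.73, 1.91, and 2.60 CPM at 2, 4, and 8 h, and highest values of 6.48, 6.22, and 7.75. STAT6MUT medians were 10.5, 13.0, and 13.3 CPM, and 8, 8, and 7 of 9 libraries lay above every STAT6WT library. The shallow N421K library of 8 h held no IFI27 UMI, where a count of 0 among its 191586 UMIs allows up to 3. The log2 fold change was 2.53 ± 0.18 (adjusted p = 4.41e-20), already 2.22 ± 0.33 at 2 h. IFI6 was 2.87 ± 1.51 CPM in STAT6WT and 9.95 ± 7.07 in STAT6MUT (SD, n = 27), with an unfiltered log2 fold change of 1.80 ± 0.18 (adjusted p = 1.38e-19). A noncoding gene, LINC02574, overlaps IFI6 on the same strand.

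The IFIT genes encode proteins that bind viral RNA, such as RNA with an unmethylated cap, and block its translation. None of the 4 passed the count filter. In all STAT6WT libraries together, IFIT1, IFIT2, IFIT3, and IFIT5 had 14, 8, 11, and 37 UMIs, and in all STAT6MUT libraries 50, 31, 80, and 87. At 4 h, the mean of STAT6MUT was 5.59 ± 5.49 CPM for IFIT3 and 6.60 ± 4.09 for IFIT5 (SD, n = 9), against 0.116 ± 0.348 and 1.32 ± 0.998 in STAT6WT. All 4 were called higher without the filter (1.77% of all genes), with log2 fold changes from 1.46 (IFIT5) to 2.80 (IFIT3). DESeq2 called 3 of them, giving IFIT2 no adjusted p. Exact permutation tests at 2, 4, and 8 h gave p = 0.21, 0.053, and 0.053 for IFIT1 and 0.0026, 0.0023, and 0.24 for IFIT3. IFIT3 and IFIT2 overlap LIPA on the other strand.

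Of 8 genes for proteins of the cell surface and of viral entry and release, 4 passed the filter and 3 of these were called higher. Without a filter, 6 of the 8 were. Of all genes, 6.74% were called higher with the filter and 1.77% without it. IFITM2 (ENSG00000185201), which holds viruses at the stage of membrane fusion in endosomes, had a log2 fold change near 1 at each time point. Its STAT6WT libraries had a median of 13.6 CPM at 2 h (10.6 to 23.2), 13.9 at 4 h (8.94 to 22.0), and 13.1 at 8 h (9.98 to 22.1). STAT6MUT medians were 30.2, 32.2, and 28.0 CPM, and 9, 9, and 8 of 9 libraries lay above every STAT6WT library. The log2 fold change was 1.05 ± 0.09 across time points (adjusted p = 4.49e-17) and 1.09, 1.00, and 1.06 at 2, 4, and 8 h. IFITM1 and IFITM3 fell below the filter, at 1.90 ± 1.196 and 2.67 ± 1.87 CPM in STAT6WT and 4.94 ± 3.99 and 6.83 ± 2.81 in STAT6MUT (SD, n = 27). Their unfiltered log2 fold changes were 1.42 ± 0.24 and 1.27 ± 0.21, and since the IFITM genes are close copies, reads could have been split among them.

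PLSCR1 (ENSG00000188313), a membrane-associated protein that limits entry of several viruses, had its largest difference at 4 h. There STAT6WT libraries ranged from 10.5 to 18.7 CPM (median 16.4), while D419G held 29.5, 32.5, and 22.1, D419N 24.7, 17.6, and 21.8, and N421K 55.6, 46.9, and 42.9. At 2 h no STAT6MUT library was above the highest STAT6WT library. The log2 fold change was 0.74 ± 0.12 across time points (adjusted p = 6.22e-07), and 0.48, 1.14, and 0.52 at 2, 4, and 8 h, of which that of 4 h was called, and the change over time was not (adjusted p = 0.328). Exact permutation tests at these times gave p = 0.10, 0.00016, and 0.53. BST2, or tetherin, which holds budding virus at the surface, was 97.8 ± 20.6 CPM in STAT6WT and 120.1 ± 46.3 in STAT6MUT (log2 fold change 0.36 ± 0.07, adjusted p = 1.78e-05). Its values at 2, 4, and 8 h were 0.02, 0.44, and 0.55. RTP4, a chaperone of receptors that also restricts flaviviruses, was called only without the filter (0.86 ± 0.25, adjusted p = 0.0218). LY6E had 3 UMIs in all STAT6WT and 9 in all STAT6MUT libraries, a CPM ratio of 3.77 (95% exact interval of counting error 0.941 to 21.6). SHISA5, an endoplasmic reticulum protein, was one of the uncalled members of highest STAT6WT level. It ranged from 116 to 211 CPM over STAT6WT and from 121 to 215 over STAT6MUT libraries, with 1 STAT6MUT library above every STAT6WT library (log2 fold change -0.00 ± 0.04, adjusted p = 0.972).

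Genes that act on nucleotides and RNA split into a group with large differences and a group with values close to those of STAT6WT. HELZ2 (ENSG00000130589), a nuclear receptor coactivator with helicase domains, had STAT6WT medians of 3.58, 5.96, and 3.00 CPM at 2, 4, and 8 h and STAT6MUT medians of 9.53, 22.9, and 13.8. Every STAT6MUT library of 4 h was above every STAT6WT library, as were 5 of 9 at 2 h and 8 of 9 at 8 h (log2 fold change 1.91 ± 0.17, adjusted p = 3.60e-16). SAMD9 and SAMD9L are neighbors on chromosome 7 that restrict poxviruses and limit translation. SAMD9 (ENSG00000205413) ranged from 6.10 to 26.1 CPM in STAT6WT and from 17.3 to 69.1 in STAT6MUT, with 20 of 27 STAT6MUT libraries above every STAT6WT library (1.23 ± 0.11, adjusted p = 1.38e-15). SAMD9L (ENSG00000177409) ranged from 1.37 to 11.8 CPM in STAT6WT and from 0 to 46.8 in STAT6MUT, with 18 of 27 above (1.91 ± 0.16, adjusted p = 1.63e-16). RSAD2, or viperin, makes a chain-terminating nucleotide from CTP, and CMPK2 beside it supplies that CTP. RSAD2 had 3 UMIs in all STAT6WT and 41 in all STAT6MUT libraries, a CPM ratio of 17.2 (95% exact interval 5.48 to 86.7). CMPK2 had 20 and 92 UMIs (unfiltered log2 fold change 2.35 ± 0.32, adjusted p = 7.03e-11), and this pair overlaps on opposite strands.

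The remaining members of this role were not called across time points. ISG20, an exonuclease of single-stranded RNA, was 139.2 ± 30.7 CPM in STAT6WT and 134.2 ± 15.9 in STAT6MUT (SD, n = 27, log2 fold change -0.04 ± 0.05). It was the 1 member called lower at any time point, from 172.2 ± 23.7 to 144.7 ± 16.5 CPM at 2 h (n = 9, log2 fold change -0.22 ± 0.07, adjusted p = 0.0397). No member was called lower at 2 h without replicate number 1, 2, or 3, or without D419N or N421K. SAMHD1, which breaks down dNTPs, and CNP, a phosphodiesterase that limits assembly of HIV particles, had log2 fold changes of 0.07 ± 0.06 and 0.08 ± 0.05. TDRD7, an inhibitor of autophagy that viruses use, had 163 UMIs in STAT6WT and 147 in STAT6MUT and was below the filter (unfiltered log2 fold change 0.19 ± 0.18).

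Many TRIM proteins are ubiquitin ligases, and some bind viral capsids or antibody-coated virus. TRIM21, the cytosolic Fc receptor, and TRIM22 were called higher, with log2 fold changes of 0.42 ± 0.12 (adjusted p = 0.00736) and 0.39 ± 0.09 (adjusted p = 0.00126). TRIM21 was called at 4 h (11.6 ± 2.80 CPM in STAT6WT, 20.1 ± 5.89 in STAT6MUT, SD, n = 9) and not at 8 h (12.3 ± 3.64 and 10.4 ± 5.33), with an adjusted p of 0.234 for the change over time. TRIM21 was not called without N421K (0.25, adjusted p = 0.318), nor TRIM22 without replicate number 1 (0.29, adjusted p = 0.0857). TRIM14, a mitochondrial adaptor of RNA sensing, had 0.05 ± 0.09, and TRIM5, a sensor of retroviral capsids, was below the filter at 236 UMIs in STAT6WT and 164 in STAT6MUT (unfiltered -0.20 ± 0.16).

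Of 4 components of PML nuclear bodies, which silence viral genomes, PML and SP110 were called higher (6.74% of all genes tested) and SP100 and SP140 were not. PML was 26.3 ± 5.42 CPM in STAT6WT and 34.3 ± 9.38 in STAT6MUT (SD, n = 27, log2 fold change 0.42 ± 0.07, adjusted p = 1.37e-05), and at 4 h all 9 STAT6MUT libraries (35.0 to 59.9 CPM) lay above every STAT6WT library (23.3 to 34.8). At 2 and 8 h, 0 and 6 of 9 did so, and PML was not called at either time (adjusted p = 0.248 and 0.266). SP110 had 0.28 ± 0.06 (adjusted p = 0.000441) and was not called without N421K (0.17, adjusted p = 0.0854). SP140 overlaps it on the other strand and had 0.02 ± 0.07. SP100 was the uncalled member of highest STAT6WT level. Its STAT6WT medians were 194.5, 212, and 220.5 CPM at 2, 4, and 8 h and its STAT6MUT medians 190.6, 221, and 184, and the groups overlapped at each time (log2 fold change 0.02 ± 0.05, adjusted p = 0.823).

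All 5 adaptors and regulators that passed the filter were called higher (6.74% of all genes tested), and the sixth, XAF1, without it (1.77% of all genes). EPSTI1 (ENSG00000133106), a stromal interaction protein induced by interferon, had STAT6WT medians of 6.10, 6.16, and 8.40 CPM and highest values of 13.5, 11.3, and 16.5 at 2, 4, and 8 h. At 4 h, D419G held 22.7, 30.0, and 27.6 CPM, D419N 10.7, 19.4, and 31.5, and N421K 46.8, 53.4, and 60.4. One D419N library thus lay within the STAT6WT range at 4 h, and at 8 h the shallow N421K library did, at 14.7 CPM. The log2 fold change was 2.11 ± 0.16 (adjusted p = 8.31e-19). XAF1, which counters an inhibitor of caspases, was 1.31 ± 1.08 CPM in STAT6WT and 8.14 ± 6.62 in STAT6MUT, and all 9 STAT6MUT libraries of 4 h were above every STAT6WT library (exact permutation test, two-sided, p = 4.1e-05, with 0.038 at 2 h and 0.0013 at 8 h). IFI35 and NMI, which bind each other and act on RNA sensing, had 0.98 ± 0.11 (adjusted p = 2.01e-11) and 0.37 ± 0.07 (adjusted p = 9.38e-06). PHF11, a regulator of B cell transcription, and IFI16, a sensor of nuclear DNA, had 0.23 ± 0.06 and 0.18 ± 0.05. Of these, PHF11 and IFI16 lost the call without N421K (0.20, adjusted p = 0.0802, and 0.10, adjusted p = 0.251), and PHF11 also without replicate number 1 or 3 (adjusted p = 0.110 and 0.0716). In all, PHF11 lost the call under 4 and IFI16 under 2 of 14 alternatives.

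In the galectin system, LGALS9, a secreted lectin that signals to T cells, was 25.4 ± 6.08 CPM in STAT6WT and 38.4 ± 9.31 in STAT6MUT (SD, n = 27, log2 fold change 0.62 ± 0.08, adjusted p = 1.22e-08). At 8 h all 9 STAT6MUT libraries (27.2 to 51.9 CPM) lay above every STAT6WT library (17.4 to 27.1). At 2 and 4 h, 2 and 7 of 9 did so, and LGALS9 was not called at 2 h (adjusted p = 0.114). LGALS3BP, a glycoprotein that binds galectins, had 27 UMIs in STAT6WT and 29 in STAT6MUT and was not called.

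At each time point by itself, taken as a contrast in a model of the 6 groups of genotype and time, 29 members passed the filter. At 2 h, 10 were higher and 1 lower (3.26% and 4.24% of all 9507 genes tested). At 4 h, 19 were higher and none lower (2.16% and 2.06%), and at 8 h, 13 were higher and none lower (1.26% and 1.34%). At an unadjusted p under 0.05, 0 were lower at 4 h and 0 at 8 h, and DESeq2 called 23 and 16 higher and 0 lower at these times. IFI44L and IFI6, low in STAT6WT, passed the filter here and not across time points, and both were called at 4 and 8 h. Without a filter, all 45 members gave 12 higher and 0 lower at 2 h (0.902% and 1.13% of all 31835 genes), 26 and 0 at 4 h (0.578% and 0.506%), and 19 and 0 at 8 h (0.314% and 0.368%). Median log2 fold changes over the 29 members were 0.33, 0.66, and 0.52, against 0.00 for all genes at each time. The count of 2 h rested in part on single lines and numbers. It was 6 without N421K, 6 without replicate number 1, and 7 without replicate number 2, and the count of 4 h was 10 without N421K. At 2 h, IFI44 was not called without N421K (adjusted p = 0.0505), HELZ2 not without replicate number 1 (0.183), and SAMD9L not without number 1 or 2, D419G, or N421K (0.0547 to 0.191). Of the 20 genes called across time points, 15 had their smallest log2 fold change at 2 h, 3 at 4 h, and 2 at 8 h. The largest lay at 2 h for 1, at 4 h for 11, and at 8 h for 8. These counts have no share of all genes beside them, and the change over time was called for MX1 alone.

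The change of the genotype difference over time was called for 1 member, MX1, of 29 (0.957% of all 9507 genes). Its log2 fold changes at 2, 4, and 8 h were 1.30 ± 0.20, 2.65 ± 0.18, and 2.64 ± 0.16 (adjusted p of the interaction = 0.000691). At an unadjusted p under 0.05 the interaction count was 14, with no share of all genes at that threshold beside it. DESeq2 called 1, and the fit without a filter called 4 of 45 (0.383%). The count of members called was 2 without replicate number 1 or 2, 2 without D419G or N421K, and 4 without D419N. IFI44 went from 1.79 ± 0.43 through 2.99 ± 0.37 to 4.26 ± 0.34 (adjusted p = 0.104), EPSTI1 from 1.13 ± 0.29 through 2.35 ± 0.27 to 2.60 ± 0.24 (adjusted p = 0.0815), and BST2 from 0.02 ± 0.11 to 0.55 ± 0.10 (adjusted p = 0.0956). For IFITM2, the adjusted p was 0.989.

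Within a genotype, many genes of the whole transcriptome differed between 8 and 2 h, and time points lay in different plate rows, so that time and row cannot be told apart. In STAT6WT, 9 of 22 members that passed the filter were higher at 8 h and 3 were lower (15.2% and 15.6% of all 9142 genes). In STAT6MUT, 19 of 30 were higher and 1 lower (17% and 17.1% of all 9370 genes). The filter was set within each genotype and kept different members, so that all 45 were also fitted without one. There 10 were higher and 2 lower in STAT6WT (4.67% and 4.17% of all 28992 genes), and 21 and 1 in STAT6MUT (4.74% and 6.14% of all 28535). MX1 had a log2 fold change of 0.28 ± 0.14 from 2 to 8 h in STAT6WT (adjusted p = 0.1195) and of 1.58 ± 0.12 in STAT6MUT (adjusted p = 5.90e-17). BST2 had 0.52 ± 0.08 in STAT6WT and 1.06 ± 0.11 in STAT6MUT, and IFITM2 -0.04 ± 0.17 and -0.05 ± 0.14. ISG20 was lower at 8 h in both genotypes, by -0.63 ± 0.07 in STAT6WT and -0.27 ± 0.07 in STAT6MUT. Whether these changes differ between genotypes is the interaction given before, which was called for MX1.

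Each mutant line was compared with the same 27 STAT6WT libraries, and 30 members passed the filter. In D419G, 16 were higher and none lower (3.16% and 2.22% of all 9706 genes). In D419N, 14 were higher and none lower (1.49% and 1.26%), and in N421K, 22 were higher and none lower (6.76% and 6.92%). At an unadjusted p under 0.05, 20, 21, and 22 were higher and 0 lower, and DESeq2 called 21, 16, and 29 higher and 0, 0, and 1 lower. Neither set of counts has a share of all genes beside it. The D419N count was 9 without replicate number 1. Since IFI44L, IFI6, and XAF1 passed the filter in this model through lines where they are high, all 45 were again fitted without one. There 21 were higher and 0 lower in D419G (0.785% and 0.625% of all genes), 15 and 0 in D419N (0.427% and 0.346%), and 30 and 2 in N421K (1.92% and 2.02%). Median log2 fold changes over the 30 members were 0.40 in D419G, 0.33 in D419N, and 0.55 in N421K, against 0.00 for all genes in each line. The log2 fold changes of MX1 were 2.27 ± 0.13 (D419G), 1.71 ± 0.14 (D419N), and 2.63 ± 0.11 (N421K). IFI27 had 2.40 ± 0.25, 2.13 ± 0.26, and 2.83 ± 0.20, and IFITM2 had 0.93 ± 0.13, 0.97 ± 0.13, and 1.19 ± 0.11. XAF1 had 2.39 ± 0.34, 2.31 ± 0.34, and 3.06 ± 0.26 without the filter.

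A joint test among the mutant lines, which does not use the STAT6WT libraries as a reference, called 9 of 30 members (2.39% of all 9706 genes). They were IFI44L (adjusted p = 2.04e-10), MX1, IFI44, EPSTI1, PLSCR1, IFI6, HELZ2, SAMD9, and SAMD9L (adjusted p = 0.0428). Without a filter, 12 of 45 were called (0.81% of all genes), these 9 with GBP1, IFITM1, and CMPK2, and the adjusted p of IFI44L and IFI6, which had passed only in this model and in that of the time points, was 2.48e-22 and 0.00492. N421K was higher than D419N in all 9 (1.88% of all genes called in either direction) and higher than D419G in 4, IFI44L, IFI44, EPSTI1, and PLSCR1 (1.32%). For D419N against D419G, the lines that share a residue, 0.196% of all genes were called and no member was, with MX1 the closest (log2 fold change -0.56 ± 0.15, adjusted p = 0.0897). For IFI44L, N421K exceeded D419G by 1.72 ± 0.24. Pairs of lines were fitted with the filter alone, which IFI44L and IFI6 passed through lines where they are high. The pair values of IFI44L and IFI6 are therefore description only. For PLSCR1, N421K exceeded D419N by 0.79 ± 0.16 and D419G by 0.66 ± 0.16, and its difference from STAT6WT was called in N421K (1.12 ± 0.12, adjusted p = 2.16e-12). The count among lines was 4 without replicate number 1 and 5 without number 3. At an unadjusted p under 0.05 it was 16, with no share of all genes at that threshold beside it, and DESeq2 called 11. Since each line may be 1 transduced population, line and population cannot be told apart here either.

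The interferon pathway itself was described with a list of other genes. Of 16 interferon genes sought, 4 had a line in the table, with 7 UMIs in all STAT6WT and 8 in all STAT6MUT libraries together, 9 of the 15 from IFNB1. The 6 interferon receptor genes had log2 fold changes from -0.14 to 0.15 and adjusted p-values from 0.256 to 0.999. Among kinases, JAK2 was higher in STAT6MUT (7.47 ± 2.80 and 13.1 ± 6.76 CPM, log2 fold change 0.86 ± 0.14, adjusted p = 2.72e-06), and JAK1 and TYK2 had 0.00 ± 0.07 and 0.05 ± 0.07. Among transcription factors, IRF7, which drives interferon transcription, was higher (1.45 ± 0.10), as was IRF9, part of the complex that binds the ISRE (1.32 ± 0.17). IRF1, STAT2, and IRF2 were called higher at 0.41, 0.35, and 0.28, IRF3 and IRF5 were not called (-0.14 and 0.10), and IRF8, a factor of germinal center B cells, was lower (-0.18 ± 0.04, adjusted p = 0.000111). Of 6 inhibitors, 3 passed the filter and SOCS1 was called (0.35 ± 0.07, adjusted p = 4.25e-05). Below it, USP18 with 37 UMIs and SOCS3 with 15 UMIs in all libraries were called higher in the fit without a filter (1.59, adjusted p = 0.00578, and 2.12, adjusted p = 0.00365), and PTPN6 was not (-0.47).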

How the data were processed

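RNA of OCI-Ly1 cells was sequenced by prime-seq, which labels each mRNA molecule near its end with a UMI, on an Illumina HiSeq system. Raw UMI counts per gene and library, neither normalized nor pooled, were deposited by the authors, who used Drop-seq tools. The build in the submitters' processing notes is hg38, while aligner, annotation, and strand use are not stated there or in the methods. Of 31835 identifiers, 30959 matched a symbol of GENCODE 44 or the gene name table. All lines had an identifier and every value column was used. Groups came from the sample titles.

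Counts were tested with edgeR 4.0.16 in R 4.3.3 (quasi-likelihood, TMM, filterByExpr, Benjamini-Hochberg over all genes tested, adjusted p under 0.05), with time point as a covariate for comparisons across times and of lines. SE is the absolute log2 fold change divided by the root of the F statistic. Counts at an unadjusted p under 0.05 and counts by DESeq2 are given for the members only, without the share of all genes. Exact permutation tests used log2 CPM with a prior count of 2, two-sided, were run for 87 pairs of gene and time, and are unadjusted. Library totals set the precision, and intervals and floors cover counting error only.

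The steps were tested on simulated counts. Alternatives covered scaling, filter, DESeq2 1.42.0, shallow libraries, the replicate block, plate row, single time points, summed time points, and leaving out each replicate number, line, or library of a line. The N421K library of 8 h was left out after the data were seen. Genes described library by library were those called across time points with an absolute log2 fold change of at least 1, the members called in the interaction or among lines (at most 5 each), and the 2 uncalled members of highest STAT6WT level. The members, lists, and tests were chosen with earlier results of these data known. Replicate numbers were not used to pair libraries in the main tests. Values of 1 gene of the pathway list, and counts over the whole list, are not reported here. Promoter sequences are from RefSeq, and 8 members (TRIM22, PML, GBP2, IFITM2, LY6E, MX2, IFIT2, and PHF11) had none. Plots were drawn with matplotlib 3.10.9.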

Additional observations from a re-analysis of the deposited data

Results flagged for a closer look

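In groups of 9 STAT6WT libraries, 5 of 36 tests of the genes described library by library set 1 library apart by Dixon's criterion at 95%, where chance alone sets about 1 in 20 groups apart. IFI44 had 7.62 CPM (8 UMIs) in replicate 1 of 4 h, against a group median of 2.27, and 6.30 CPM (4 UMIs) in replicate 1 of 8 h, against 1.94. IFI27 had 7.75 CPM (4 UMIs) in replicate 4 of 8 h, against 2.60. SP100 had 162 CPM in replicate 3 of 4 h, against 212, and SHISA5 had 115.9 CPM in replicate 9 of 4 h, against 147. The IFI44 and IFI27 values rest on 4 to 8 UMIs, and all 3 lay above their group.

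The genotype difference in MX1 differed between time points (edgeR's quasi-likelihood test, adjusted p = 0.000691). The 3 mutant lines differed in IFI44L (adjusted p = 2.04e-10), MX1 (4.22e-06), IFI44 (1.89e-05), EPSTI1 (3.70e-05), PLSCR1 (0.000376), IFI6 (0.0142), HELZ2 (0.0145), SAMD9 (0.0163), and SAMD9L (0.0428), each by edgeR's joint test of the lines.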

How the results depend on the processing

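Of 154 counts of members called under an alternative, 136 stayed within 1.5 times the count reported, and of 593 log2 fold changes of single members under an alternative, 564 stayed on the same side of the threshold, 29 lost the call, and 0 turned their sign. Without a count filter, 33 members were called across time points and 4 in the interaction. With the replicate block, 6 members were called at 2 h (5 higher, 1 lower), where IFI44, HELZ2, SAMD9, and EPSTI1 lost the call (adjusted p 0.0787 to 0.168), and MX2, TRIM21, TRIM22, and PHF11 lost the call across time points. Deviations of libraries of the same number and time in other lines had a median correlation of 0.00195 (at most 0.215). For other numbers the median was -0.00011 (at most 0.310). These correlations do not settle whether the numbers pair libraries. Fitting each time point by itself gave 5 at 2 h and 8 at 8 h, with 22 and 24 members passing the filter. Without N421K, 6 were called at 2 h, 10 at 4 h, and 2 in the interaction, without D419G 2 and without D419N 4 in the interaction, and without the shallow libraries 2. Leaving out a replicate number gave 6 to 12 members at 2 h, 1 to 2 in the interaction, 9 to 14 in D419N, and 4 to 10 among lines. The cause of these changes was not tested. Depth limits the 18 members below the filter.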
